A study of Mus musculus with 9 samples.

Results

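The comparison is between whole islets and the pancreatic cells that remain once islets are taken out, both from mice with a GFP transgene (green fluorescent protein, named pdx-gfp for the islet donors and pdxa-gfp for the other group, after Pdx1, a pancreatic transcription factor). Of the 9 arrays of the series, the 3 titled whole islet and the 3 titled non-islet pancreatic cells were used, chosen by these titles alone, and the 3 arrays of induced cells were left out. An islet sample was the RNA of 4 to 5 islets collected by hand, and a non-islet sample that of about 10000 cells. No drug, diet or surgery is named for either group, and age is given only as adult for the islet donors. The series speaks of independent repeats without naming animals, so whether the 3 samples of a group differ by mouse or only by preparation is unknown, and p-values cover the spread among these samples, which may be technical. Both groups are mixtures: an islet holds several hormone cell types with vessels, nerve endings and immune cells, and the non-islet tissue holds acinar, duct, vessel and stromal cells. In such bulk RNA, fewer cells of a type and less RNA per cell cannot be told apart.

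The pancreas joins 2 glands. Acinar cells make digestive enzymes, mostly as inactive precursors, store them in zymogen granules and release them into ducts that add bicarbonate-rich fluid. Endocrine cells in the islets make peptide hormones that are cut from precursors inside dense-core granules and released into a dense bed of capillaries: beta cells secrete insulin and amylin, alpha cells glucagon, delta cells somatostatin and PP cells pancreatic polypeptide. Pdx1 and Ptf1a mark the common progenitor, after which Ptf1a becomes restricted to acinar cells and Pdx1 stays high in beta and delta cells.

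All values below are bead array intensities as deposited, or log2 differences (islets minus non-islet cells) of value plus an offset of 14.8, tested with limma (moderated test, two-sided, Benjamini-Hochberg adjustment over 13036 probes, threshold 0.05). The deposited values had the same mean on all 6 arrays, 74.2, but were distributed differently. An islet array had 13679 ± 132 probes above background and a non-islet array 9544 ± 365 (SD, n = 3, as for every value given with ± below). The 50 brightest probes held 15.4 ± 1.06 percent of the signal on islet arrays and 44.1 ± 1.90 percent on non-islet arrays. The highest value of an array averaged 8101 ± 424 and 24795 ± 656, and the noise SD 1.94 ± 0.0918 and 4.55 ± 0.233. Because no single scaling suits both ends of these distributions, each difference was computed after quantile normalization, after scaling to a common median, and on the deposited values as they stand. Where 3 log2 differences are given in a row, they are in that order. Which slide held which array is not known here, so slide and tissue cannot be told apart.

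Most of the transcriptome differed between the 2 tissues. Of 9352 measured genes, each read by its brightest kept probe, 3794 (40.6 percent) were higher in islets and 1706 (18.2 percent) lower under all 3 scalings. At least 4-fold differences among them numbered 401 genes higher (4.29 percent) and 240 lower (2.57 percent). The split depended on the scale. After quantile normalization 40.7 percent of genes were called higher and 34.6 percent lower, after median scaling 55.5 and 24 percent, and as deposited 65.5 and 18.6 percent. Over probes the same shares were 40.1 and 33.8 percent, 53.9 and 23.9 percent, and 63.9 and 18.3 percent, with 39.9 and 18 percent under all 3 scalings and 3.86 and 2.38 percent also 4-fold apart. Of probes called, 54.3 percent were higher in islets after quantile normalization, 69.3 percent after median scaling and 77.7 percent as deposited. The 3 arrays of each group did not overlap in 42.5 percent of genes with islets higher and 36 percent with islets lower (quantile). The median gene differed by 0.10, 0.43 and 0.66 (log2), and list medians below are to be read against these. Of the 1706 lower genes, 518 had a non-islet mean of at least 50 and 1188 lay under it. Scaling the arrays to equal noise raises islet signal against non-islet signal by construction and moved the median gene to 1.42, so it favours higher calls over lower ones. Under it 489 of the 1706 were lower as well. The background filter bears on the higher calls. Of the 3794 higher genes, 2162 passed it through the islet arrays alone, against 272 of the lower genes through the non-islet arrays alone. Over all genes 3166 passed through islets alone, of which 2162 were higher and 44 lower under all 3 scalings. The limit follows each array's noise SD and so lay lower on islet arrays, where a dim gene passes more easily. The list counts and medians below therefore describe the members measured and are no support for a direction. In lists of 5 or more where at least as many members passed through islets alone as did not, that number is given beside them. Among the 5914 genes above background on all 6 arrays, 1632 were higher and 1390 lower, and the median gene differed by -0.24, 0.25 and 0.57. Arrays of a group resembled each other closely, with correlations of log2 signal across probes of 0.991 among islets and 0.975 among non-islet samples, against 0.828 between groups (means over 3, 3 and 9 pairs, probes not being independent).

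**Figure D1:**
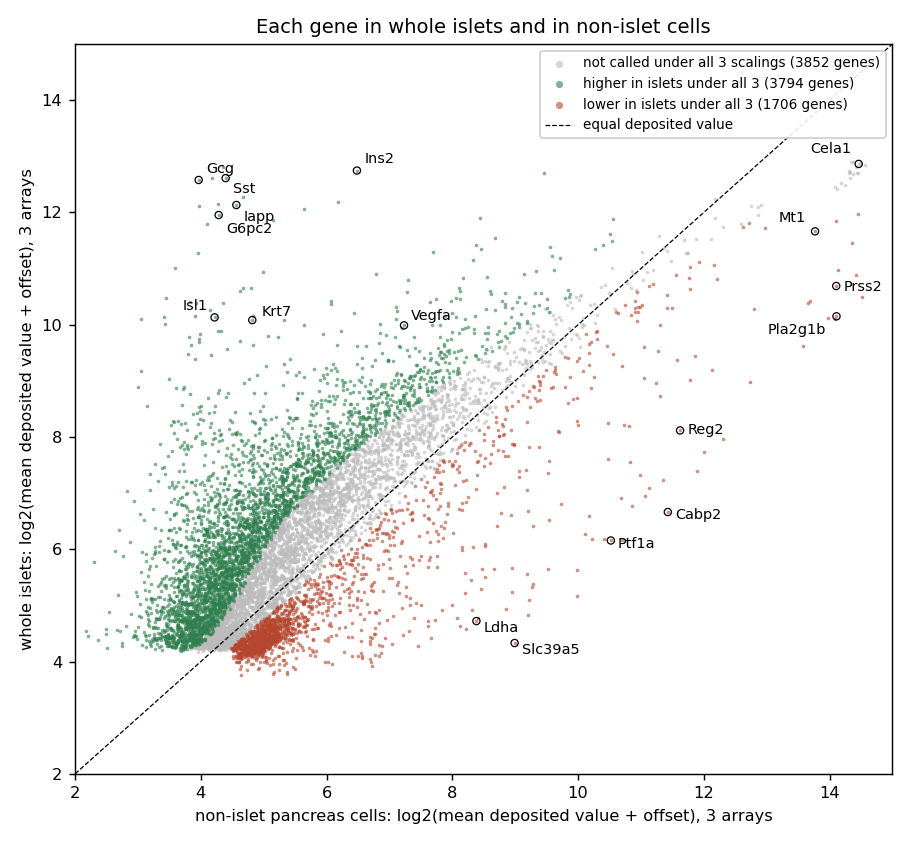
Each point is a gene, with log2 of its mean deposited value plus the offset in 3 non-islet arrays on the x axis and in 3 islet arrays on the y axis, green where higher in islets under all 3 scalings, red where lower, grey otherwise, with a dashed line of equality. Hormone and endocrine genes such as Gcg, Sst and Isl1 lie at the upper left near the non-islet background, acinar genes such as Cabp2 and Ptf1a at the lower right, and a dense group of lower calls sits near background.

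Islet hormones gave the 4 largest log2 differences after quantile normalization. Gcg, the glucagon precursor, had 6322, 6754 and 5215 on the islet arrays and -2.54, 3.07 and 1.93 on the non-islet arrays. Its islet values lay far above a non-islet group that never exceeded background, a difference of at least 535-fold (log2 difference 9.64, SE 0.14, adjusted p = 4.7e-10). Here and below "at least" is a bound after quantile normalization, for the brightest probe of the gene. It sets the islet mean of log2 value plus offset against the dimmest signal that counts as above background. The bound was not computed under the other scalings and may be smaller there. Sst, the somatostatin precursor, had 6919.7, 6093 and 5707 on the islet arrays and 5.54, 6.75 and 6.41 on the non-islet arrays, at least 543-fold higher in islets (adjusted p = 1.1e-10). Pyy, peptide YY, had 6169.8, 6478 and 6191 on the islet arrays and 4.86, 1.81 and 3.13 on the non-islet arrays, at least 548-fold higher (adjusted p = 2.1e-10). No non-islet array was above background for these 3 genes, so that the fold is limited by the background and not by the islet signal.

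Ppy, pancreatic polypeptide, had 7590.0, 7352 and 6415 on the islet arrays and 9.83, 3.34 and 3.46 on the non-islet arrays. Only 1 non-islet array was above background and the groups were far apart (log2 differences 9.42, 8.21 and 8.47). Ins2, one of the 2 mouse insulin genes, had 8204, 6637 and 5712 on the islet arrays and 87.0, 84.2 and 52.6 on the non-islet arrays. It was the 1 hormone above background on all 3 non-islet arrays, where its mean was 1.09 percent of the islet mean, and the log2 differences were 6.70, 5.89 and 6.27 (adjusted p = 8.3e-09 after quantile normalization). Iapp, amylin, which is co-secreted with insulin, had 4716, 4419 and 4286 on the islet arrays and 5.48, 11.0 and 10.1 on the non-islet arrays and log2 differences of 8.21, 7.30 and 7.57. Over the 6 hormones measured, the non-islet mean was 0.0273 to 1.09 percent of the islet mean on the deposited scale. The groups did not overlap for any of these hormones. Ins1 was not analysed here.

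The beta cell list followed the hormones. Of 22 measured genes, 20 were higher and 0 lower under all 3 scalings, with median log2 differences of 4.39, 4.72 and 4.94. 18 of them passed through islets alone, and 4 of the 4 above background on all arrays were higher. G6pc2, the islet glucose-6-phosphatase, had 4036, 4001 and 3813 on the islet arrays and 4.04, 3.01 and 6.98 on the non-islet arrays, at least 207-fold higher in islets. Slc30a8, which loads zinc into insulin granules, had 1938, 2036 and 2138 on the islet arrays and -3.53, -2.29 and -2.43 on the non-islet arrays, at least 90.9-fold higher. For both genes every non-islet array was at background. The membrane side of glucose sensing was higher as well: Slc2a2, the glucose transporter, averaged 299.9 ± 17.2 in islets and 7.16 ± 2.30 in non-islet cells (log2 differences 3.35, 3.59 and 3.85), and Abcc8, the sulfonylurea receptor, 896 ± 151 in islets and 1.00 ± 2.97 in non-islet cells, at least 31.9-fold. Ucn3, a peptide of mature beta cells, averaged 863 ± 38.9 in islets and -0.691 ± 0.195 in non-islet cells, at least 31.4-fold. Among all 22, 12 genes were above background on all islet arrays and on no non-islet array. Ppp1r1a, a phosphatase inhibitor known from beta cells and brain though not in the list, averaged 3527 ± 99.0 in islets and 2.29 ± 1.92 in non-islet cells and was at least 174-fold higher. The 2 listed genes without a call were Glp1r, the GLP-1 receptor (9.92 ± 2.61 in islets and 8.42 ± 1.96 in non-islet cells), and Kcnj11, the channel pore that pairs with Abcc8 (7.71 ± 0.235 in islets and 3.66 ± 3.36 in non-islet cells), whose probes gave values near background in both groups. Ero1b, an oxidase that serves disulfide bond formation and is abundant in beta cells, had high values in both tissues (2871 ± 150.5 in islets and 1471 ± 144 in non-islet cells) and log2 differences of 1.09, 0.55 and 0.96.

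**Figure D2:**
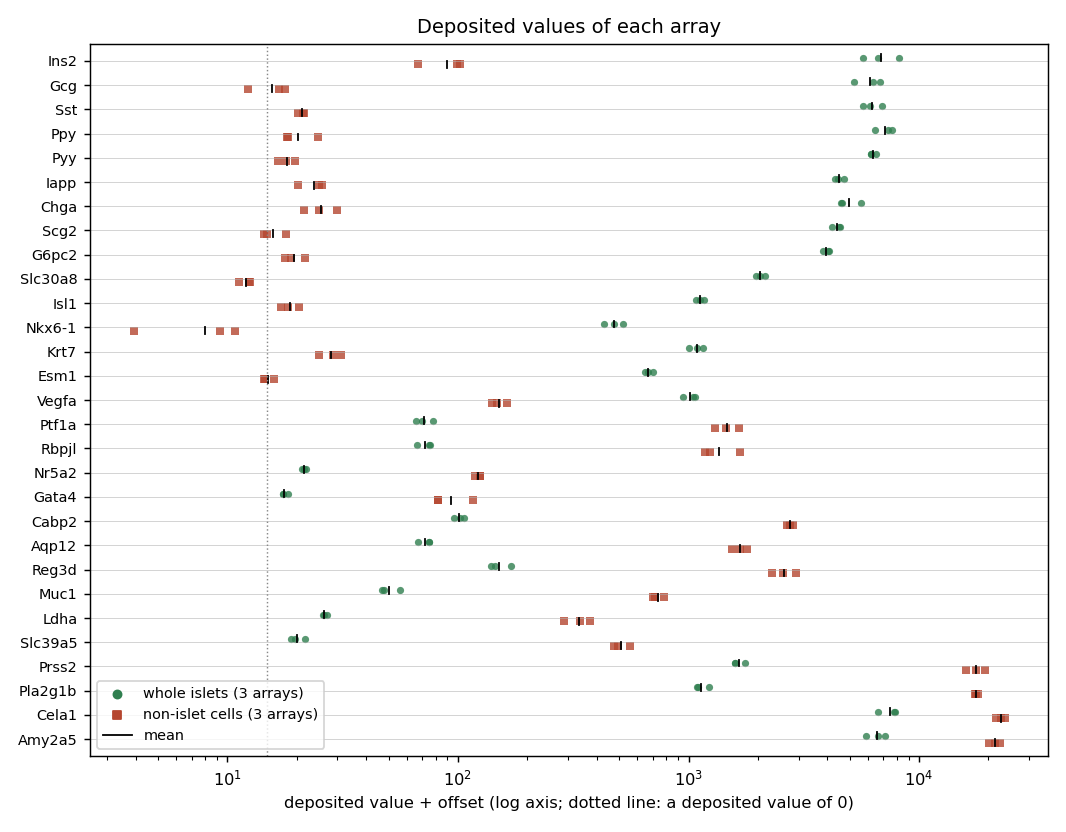
Deposited values plus the offset, on a log axis, for 29 genes on each islet array (circles) and non-islet array (squares), with group means as bars and a dotted line at a deposited value of 0. The 3 arrays of a group lie close together and the groups do not overlap for any gene drawn, with the 2 enzymes at the bottom (Cela1, Amy2a5) closest to each other.

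In the list of other hormone cells 8 of 12 genes were higher and 3 lower (medians 2.79, 2.45 and 2.76, with 8 passing through islets alone and a quantile median of -1.20 over the 4 above background on all arrays). Beside the hormones, Hhex, a homeodomain factor that delta cells need, averaged 87.2 ± 4.14 in islets and 6.15 ± 1.19 in non-islet cells, and Ttr, transthyretin, a carrier protein made in alpha cells, had high values in both tissues (6638 ± 573 in islets and 688 ± 43.5 in non-islet cells) and log2 differences of 4.05, 2.83 and 3.24. The lower genes were Slc38a5, an amino acid transporter listed here for its place in alpha cells, which averaged 721 ± 16.3 in islets and 2449 ± 223 in non-islet cells (log2 differences -1.91, -2.15 and -1.74), Pou3f4, a POU factor (11.0 ± 0.808 in islets and 31.7 ± 2.60 in non-islet cells), and Ghsr, the ghrelin receptor (10.8 ± 2.51 in islets and 18.3 ± 2.44 in non-islet cells).

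Of 13 measured genes of the dense-core granule, 11 were higher and 1 lower in islets (medians 4.88, 5.03 and 5.33, 6 through islets alone). Over the 7 above background on all arrays, 5 were higher and 1 lower, with medians of 1.17, 1.53 and 1.79. Scg2, secretogranin II, had 4459, 4535 and 4183 on the islet arrays and 0.0273, -0.43 and 3.14 on the non-islet arrays, at least 276-fold higher in islets. Chga, chromogranin A, had 5608, 4589.7 and 4635 on the islet arrays and 15.2, 10.2 and 6.63 on the non-islet arrays, with log2 differences of 8.52, 7.32 and 7.61. No array of one group came near the other in these 2 granins, which help to pack hormone into granules. Resp18, a granule protein of endocrine cells, had 4799, 4568 and 4297 on the islet arrays and 0.821, 7.20 and 5.39 on the non-islet arrays, at least 363-fold higher. Cpe, the carboxypeptidase that trims prohormones, had 4489, 4509 and 3844 on the islet arrays and 37.1, 36.5 and 31.6 on the non-islet arrays, with log2 differences of 6.39, 6.08 and 6.43, and unlike Scg2 it was above background on all non-islet arrays. Chgb, chromogranin B, averaged 1131 ± 57.5 in islets and 0.172 ± 3.15 in non-islet cells, at least 41.7-fold. The exception in the list was Ptprn2, a granule membrane protein, whose probe averaged 24.2 ± 2.00 in islets and 65.6 ± 7.20 in non-islet cells and was lower in islets (log2 differences -1.89, -1.34 and -1.04). The probe for Pcsk1, a prohormone convertase, did not pass the background filter, and Pcsk2 was not analysed here.

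The promoters of several of these genes carry the palindrome TGACGTCA, known as the cyclic AMP response element and first worked out in the somatostatin gene. Within the 250 bases before the RefSeq start (GRCm38.p6) it was found in 3 of 15 listed granule genes with a promoter entry (Chgb, Pcsk1, Scg2), in 4 of 51 genes of the beta, hormone cell and granule lists together, and in 1.62 percent of 27025 promoters. The motif was chosen with these results known, and a match is a description of the letters only. The stretches for Sst (chr16:23890845-23891094, minus strand), Scg2 (chr1:79440027-79440276, minus strand) and Chgb (chr2:132781392-132781641, plus strand), genes that were higher in islets by at least 543-, 276- and 41.7-fold, are shown 5′ to 3′ on the gene's strand with the palindrome in capitals. It begins 48, 68 and 72 bases before the start.
Sst: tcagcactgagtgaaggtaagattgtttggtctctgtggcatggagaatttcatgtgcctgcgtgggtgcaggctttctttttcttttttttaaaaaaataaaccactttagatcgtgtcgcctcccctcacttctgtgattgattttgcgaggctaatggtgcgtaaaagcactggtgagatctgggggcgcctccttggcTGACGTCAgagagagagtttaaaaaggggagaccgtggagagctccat
Scg2: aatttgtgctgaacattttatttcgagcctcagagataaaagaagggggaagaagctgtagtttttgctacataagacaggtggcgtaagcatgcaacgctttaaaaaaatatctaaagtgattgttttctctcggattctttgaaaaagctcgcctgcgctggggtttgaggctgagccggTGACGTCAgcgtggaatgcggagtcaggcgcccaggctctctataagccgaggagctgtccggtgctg
Chgb: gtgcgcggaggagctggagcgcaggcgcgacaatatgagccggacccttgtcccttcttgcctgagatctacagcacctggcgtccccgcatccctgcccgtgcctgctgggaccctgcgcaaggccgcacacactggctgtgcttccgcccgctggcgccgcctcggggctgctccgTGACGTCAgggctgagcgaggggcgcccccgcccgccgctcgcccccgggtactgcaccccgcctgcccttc

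The release machinery differed member by member. In regulated exocytosis 13 of 21 genes were higher and 3 lower (medians 1.92, 2.39 and 2.53, 11 through islets alone). Syt13 and Syt4, synaptotagmins, averaged 292 ± 27.9 in islets and -2.84 ± 1.86 in non-islet cells and 655 ± 27.4 in islets and 28.2 ± 1.53 in non-islet cells, and Cadps, which primes dense-core granules, 295 ± 37.7 in islets and -2.37 ± 0.945 in non-islet cells. Sytl4, granuphilin, which docks insulin granules, had log2 differences of 4.08, 4.41 and 4.73. The 3 lower genes included Rab3d and Vamp8, which are known from zymogen granules: Rab3d averaged 775 ± 13.1 in islets and 1394 ± 141 in non-islet cells (log2 differences -1.13, -1.24 and -0.83) and Vamp8 151 ± 33.5 in islets and 262 ± 51.4 in non-islet cells (-1.63, -1.12 and -0.74). Their relatives Rab3a and Vamp2 went the other way, averaging 166 ± 20.4 in islets and 13.4 ± 2.02 in non-islet cells and 269 ± 16.2 in islets and 15.4 ± 5.18 in non-islet cells. The other was Snap25, a SNARE protein, whose probe was dim in both groups (5.19 ± 0.934 in islets and 17.9 ± 2.15 in non-islet cells).

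Among ion channels of excitable cells 10 of 15 were higher and 2 lower (medians 0.77, 0.93 and 1.08, with 12 passing through islets alone and a quantile median of -1.16 over the 3 above background on all arrays). Trpm5, a calcium-activated cation channel, averaged 783 ± 26.7 in islets and -0.372 ± 2.14 in non-islet cells, at least 28.0-fold higher in islets, and Cacna2d1, a calcium channel subunit, 146 ± 16.1 in islets and -4.05 ± 1.67 in non-islet cells, at least 4.96-fold. A second Trpm5 probe gave at least 6.92-fold. Kcnq1, a potassium channel subunit of secretory epithelia, had 32.0, 30.9 and 36.4 on the islet arrays and 265, 271 and 303 on the non-islet arrays. It was lower in islets without overlap (log2 differences -3.35, -2.96 and -2.62), and a second Kcnq1 probe differed by -2.01 (quantile). Receptors for hormones, nutrients and transmitters were split, 8 of 16 higher and 5 lower (medians 0.28, 0.40 and 0.51, with 10 passing through islets alone and a quantile median of -1.11 over the 4 above background on all arrays). P2ry1, a receptor for extracellular nucleotides, averaged 210.2 ± 10.3 in islets and -2.04 ± 1.21 in non-islet cells, at least 6.97-fold higher, whereas Ptger3, a prostaglandin E receptor, averaged 17.2 ± 2.37 in islets and 240.4 ± 45.6 in non-islet cells and was lower (-3.62, -3.29 and -2.98).

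Genes shared with neurons were measured largely through the islet arrays. For amine and GABA synthesis and transport, 6 of 8 were higher and 2 lower (medians 2.18, 2.64 and 2.90, 4 through islets alone). Ddc, aromatic amino acid decarboxylase, had 1348, 1416 and 1307 on the islet arrays and 48.7, 58.8 and 48.6 on the non-islet arrays, with log2 differences of 3.64, 4.00 and 4.36. Gad1, which makes GABA, averaged 457 ± 59.9 in islets and -1.46 ± 2.97 in non-islet cells, at least 15.2-fold, and Th, the rate-limiting enzyme of catecholamine synthesis, 90.4 ± 9.62 in islets and 0.502 ± 2.86 in non-islet cells, at least 3.26-fold. A second Gad1 probe gave at least 2.21-fold. Of neuronal-type adhesion and cytoskeleton genes 11 of 13 were higher and 1 lower (medians 1.38, 1.87 and 1.78, with 11 passing through islets alone), among them Dcx, doublecortin (86.3 ± 8.98 in islets and -3.96 ± 1.56 in non-islet cells), and Map1b (323 ± 16.7 in islets and -0.125 ± 1.11 in non-islet cells). The 2 members above background on all arrays had a median of -0.64, and none of them was higher. Of the other Map1b probes 1 was higher (3.16 log2) and 1 was not called (-0.18). The single lower gene was Tubb3, a neuronal tubulin (18.0 ± 1.53 in islets and 28.1 ± 4.23 in non-islet cells). Schwann and glial markers, which could accompany nerve endings, were low throughout. Their summed level was 46.4 to 55.5 on islet arrays and -12.9 to 2.10 on non-islet arrays. All 3 measured were higher, but all 3 passed through islets alone, which gives no support for a direction. Their part in the neuronal differences was not tested.

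Of 15 measured endocrine transcription factors 13 were higher under all 3 scalings and 0 lower (medians 3.46, 4.00 and 4.09). All 13 that were higher passed the background filter through islets alone, and the 2 above background on all arrays, Foxa2 and Hnf4a, had a median of -0.44 after quantile normalization. Isl1, a LIM-homeodomain factor of all islet hormone cells, had 1063, 1105 and 1149 on the islet arrays and 5.74, 2.24 and 3.45 on the non-islet arrays, at least 40.9-fold higher. Insm1, a zinc finger factor of endocrine differentiation, had 817, 853 and 848 on the islet arrays and 2.78, -1.07 and 0.908 on the non-islet arrays, at least 30.4-fold higher. Nkx2-2 and Nkx6-1, homeodomain factors that maintain beta cells, averaged 563 ± 79.0 in islets and -6.52 ± 1.52 in non-islet cells and 459 ± 43.8 in islets and -6.82 ± 3.60 in non-islet cells, with bounds of 19.2- and 15.4-fold. Pdx1 had 280.1, 282 and 318 on the islet arrays and 4.96, 6.73 and 11.4 on the non-islet arrays. It was above background on 1 non-islet array, and the log2 differences were 3.28, 3.53 and 3.79. Neurod1, a bHLH activator of the insulin gene, had islet values that spread more than those of the other factors named (150.4, 126 and 226), and log2 differences of 2.27, 2.61 and 2.87. Neurog3, the factor that starts the endocrine lineage in the embryo and is known to persist at a low level, averaged 29.4 ± 2.97 in islets and -2.34 ± 3.87 in non-islet cells, at least 1.54-fold. The 2 without a common call were Foxa2 (-0.06, 0.65 and 0.97) and Hnf4a (-0.82, -0.11 and 0.24), which act across pancreatic and liver lineages.

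The digestive enzymes are where scaling decides the result. All 20 measured enzymes (12 proteases, 8 lipases, amylases and nucleases) were lower in islets on the deposited values and after median scaling, but after quantile normalization only 3 of each group were called lower. The protease medians were -0.03, -2.09 and -1.68 and those of lipases, amylases and nucleases -0.06, -2.12 and -1.71. Cela1, an elastase, had 7879, 7784 and 6653 on the islet arrays and 22586, 23542 and 21586 on the non-islet arrays. The groups did not overlap on the deposited scale, where the non-islet mean was 3.03 times the islet mean, yet the log2 differences were 0.03, -2.01 and -1.60. Ctrb1, chymotrypsinogen, had 8308, 7781 and 6534 on the islet arrays and 22989.5, 23957 and 21624 on the non-islet arrays and log2 differences of 0.02, -2.01 and -1.60. Amy2a5, pancreatic amylase, had 7079, 6647 and 5868 on the islet arrays and 20139, 22353 and 21294 on the non-islet arrays and log2 differences of -0.05, -2.11 and -1.70. In all 3 genes the sign or call of the quantile value departs from the other scalings.

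The position of these probes on each array shows what the scalings act on. In 14 of the 20 enzymes every array's value was at least 60 percent of that array's highest value, 65.0 to 99.3 percent on islet arrays and from 68.3 percent up to the highest value itself on non-islet arrays. Their islet means were 29.6 to 36.7 percent of their non-islet means, close to the ratio of the groups' highest values, 32.7 percent. Quantile normalization gives the highest probes of every array the same values, so for these 14 genes it returned -0.08 to 0.17 on the log2 scale. Whether such probes were near saturation was not tested, and these arrays do not settle their fold between tissues. Cpa1, the carboxypeptidase used as an acinar marker, was at the upper end of this range (7960.4, 7674 and 7322 on the islet arrays and 21116, 21609 and 19747 on the non-islet arrays), and its log2 differences were 0.17, -1.85 and -1.44.

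**Figure D3:**
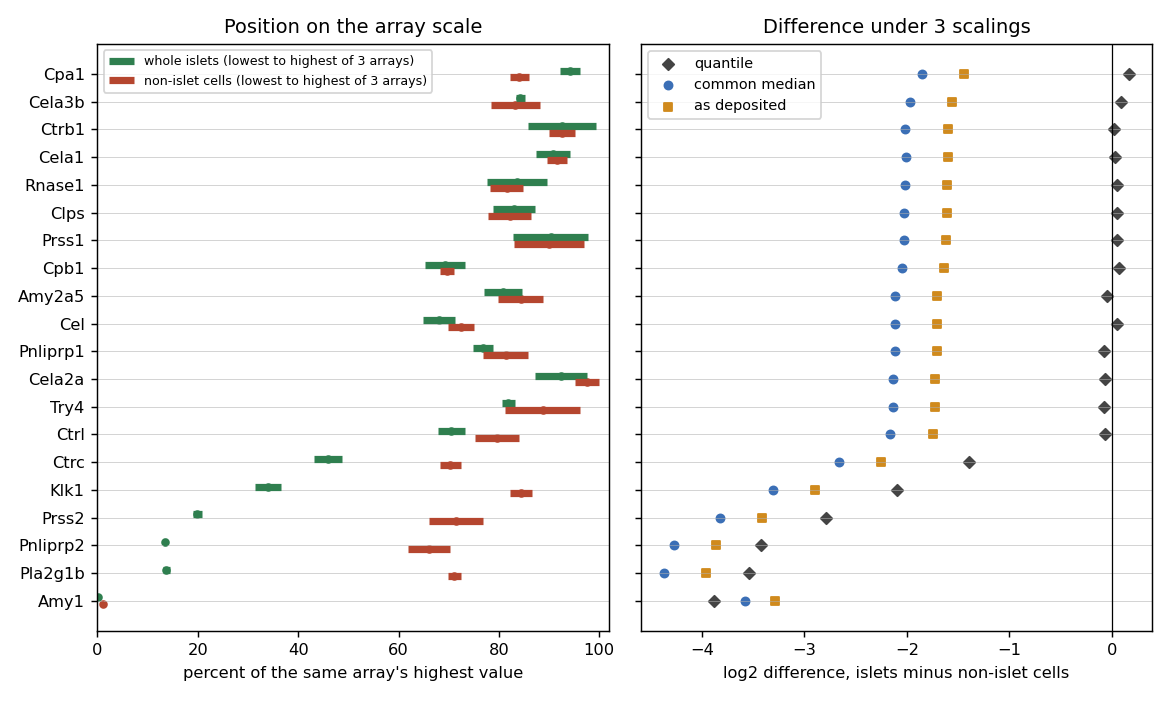
For each of 20 digestive enzyme genes, the left panel gives the range over 3 arrays of its value as a percent of the same array's highest value (dots mark the middle of the range), and the right panel the log2 difference between islets and non-islet cells under 3 scalings. The upper 14 genes sit above 60 percent of the scale in both tissues and lie near 0 after quantile normalization, while the lower 6 have a lower position in islets and are lower under every scaling shown.

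The other 6 enzymes were lower in islets under all 3 scalings, with non-islet means 4.79 to 20.1 times the islet means. Pla2g1b, the secreted phospholipase, had 1207, 1083 and 1071 on the islet arrays and 18020.5, 17555 and 17419 on the non-islet arrays. Its groups were far apart, with log2 differences of -3.54, -4.37 and -3.96. Pnliprp2, a lipase, had 1155, 1127 and 992 on the islet arrays and 17715, 15666 and 14899 on the non-islet arrays, with log2 differences of -3.43, -4.27 and -3.86. Prss2, a trypsinogen, had 1745, 1579.6 and 1583 on the islet arrays and 19344, 17588 and 15903 on the non-islet arrays (-2.79, -3.82 and -3.41). Klk1, tissue kallikrein (-2.10, -3.31 and -2.90), and Ctrc, the chymotrypsin that regulates trypsinogen (-1.39, -2.67 and -2.26), had smaller differences in the same direction. Amy1, salivary-type amylase, averaged 12.6 ± 0.881 in islets and 253 ± 13.8 in non-islet cells (-3.89, -3.58 and -3.29). Amylase and trypsinogen genes belong to families of near-identical copies whose probes can cross-hybridize, so single-gene assignment is uncertain there. A second Clps probe differed by -0.66 (log2, quantile) where the brighter one differed by 0.05.

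Enzyme transcripts were present in the islet samples too. All 20 enzymes were above background on all 3 islet arrays, at a median of 30.6 percent of the non-islet mean on the deposited scale and a range of 4.98 to 36.7 percent. The median was 23.0 percent after median scaling and 95.9 percent after quantile normalization. It rests on the 14 enzymes at the top of the scale, whose percent moves with the scaling, so it is not a measured level of enzyme RNA. Enzyme probes held 6.20 ± 0.481 percent of the signal on islet arrays and 23.0 ± 0.968 percent on non-islet arrays, and hormone probes 2.02 ± 0.177 and 0.00571 ± 0.000988 percent (mean and SD of 3 arrays). Whether acinar cells, RNA released from them or transcription in islet cells gave this signal was not tested.

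The acinar promoters were read for the 2-part site of the PTF1 complex, in which Ptf1a and Rbpjl take part: CANNTG followed after 3 to 20 bases by TTTCCC, on either strand. It was found in 4 of 23 listed enzyme genes with an entry (Cel, Cela1, Ctrb1, Prss1), in 0 of 14 other acinar genes, and in 1.78 percent of all promoters. As above, the pattern was chosen with results known and no match says anything about binding. The stretches of 3 of them, whose genes were lower in islets as deposited and after median scaling, are shown with both parts in capitals: Cela1 (chr15:100687921-100688170, minus strand), Ctrb1 (chr8:111691011-111691260, minus strand) and Prss1 (chr6:41458680-41458929, plus strand), where the pattern reads in reverse complement.
Cela1: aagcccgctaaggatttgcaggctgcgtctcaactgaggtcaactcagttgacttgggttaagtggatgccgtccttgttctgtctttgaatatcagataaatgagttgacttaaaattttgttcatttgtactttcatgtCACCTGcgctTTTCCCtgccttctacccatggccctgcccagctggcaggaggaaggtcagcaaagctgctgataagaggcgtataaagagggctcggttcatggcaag
Ctrb1: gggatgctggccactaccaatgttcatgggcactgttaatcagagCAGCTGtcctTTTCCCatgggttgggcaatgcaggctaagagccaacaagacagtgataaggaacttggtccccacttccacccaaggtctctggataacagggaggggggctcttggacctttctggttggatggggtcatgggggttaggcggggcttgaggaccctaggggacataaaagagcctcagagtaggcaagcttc
Prss1: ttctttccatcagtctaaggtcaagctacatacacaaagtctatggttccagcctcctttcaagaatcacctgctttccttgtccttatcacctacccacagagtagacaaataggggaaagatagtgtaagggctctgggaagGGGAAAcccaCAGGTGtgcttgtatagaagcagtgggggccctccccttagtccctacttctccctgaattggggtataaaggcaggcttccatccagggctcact

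Most acinar genes below the top of the scale were lower in islets under all 3 scalings. In the list of other acinar genes 17 of 18 were lower and 0 higher (medians -2.83, -3.43 and -3.07), and at equal noise 15 were lower and 1 higher. Aqp12, an acinar aquaporin, had 59.8, 59.9 and 52.3 on the islet arrays and 1650.0, 1526 and 1784 on the non-islet arrays, without overlap and with log2 differences of -4.89, -4.90 and -4.53. Erp27, a noncatalytic protein disulfide isomerase relative, had 177, 136 and 148 on the islet arrays and 3917, 3891 and 3605 on the non-islet arrays (-4.79, -4.90 and -4.51). Dmbt1, a scavenger receptor protein secreted by mucosal epithelia, averaged 26.9 ± 0.985 in islets and 606 ± 18.6 in non-islet cells (-4.40, -4.23 and -3.89), and Serpini2, a protease inhibitor of acinar cells, 106 ± 17.0 in islets and 1632 ± 414 in non-islet cells (-4.18, -4.13 and -3.74). The uncalled member was Zg16, a zymogen granule lectin, which had 7488, 6454 and 5883 on the islet arrays and 24473, 22648 and 20441 on the non-islet arrays and the pattern of the bright enzymes (-0.13, -2.18 and -1.77).

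Quantile normalization sets the 14 bright enzymes near 0, so they could not be among the 10 largest falls on that scale, which held none of the other 6 enzymes either. Klk1b8, a kallikrein, had 22.5, 18.1 and 23.0 on the islet arrays and 963, 1009 and 1009 on the non-islet arrays and log2 differences of -5.17, -5.14 and -4.81. Cabp2, a calcium-binding protein best known from the retina and inner ear, had 87.1, 81.1 and 91.4 on the islet arrays and 2814, 2659 and 2743 on the non-islet arrays (-5.06, -5.15 and -4.76). Both were lower in islets without overlap. Slc39a5, a zinc importer of epithelia, had 4.85, 4.16 and 6.91 on the islet arrays and 480.1, 460.1 and 542 on the non-islet arrays (-5.04, -4.92 and -4.66), and a second probe for it differed by -2.80. Itih4, a secreted inhibitor known from liver, averaged 34.7 ± 4.27 in islets and 996 ± 94.2 in non-islet cells (-4.81, -4.70 and -4.35), Tead2, a Hippo pathway factor, 13.5 ± 1.99 in islets and 573 ± 22.2 in non-islet cells (-4.78, -4.68 and -4.38), and Homer2, a calcium signalling scaffold, 19.4 ± 1.79 in islets and 580.5 ± 31.2 in non-islet cells (-4.58, -4.44 and -4.12). The kallikrein genes are close copies, so the Klk1b8 signal may include relatives.

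Among acinar transcription factors 7 of 10 were lower and 2 higher (medians -1.72, -1.45 and -1.05). Ptf1a, the bHLH factor that specifies acinar cells, had 51.3, 63.1 and 55.1 on the islet arrays and 1439, 1291 and 1633 on the non-islet arrays, with log2 differences of -4.78, -4.73 and -4.36. Its partner Rbpjl had 51.5, 60.1 and 60.9 on the islet arrays and 1226, 1163 and 1654 on the non-islet arrays, with log2 differences of -4.67, -4.59 and -4.22. Both were low in islets and their groups did not overlap. Nr5a2, a nuclear receptor of enzyme genes, averaged 6.66 ± 0.412 in islets and 108 ± 3.43 in non-islet cells (-3.16, -2.77 and -2.51), and Gata4, restricted to acinar cells in the adult, 2.88 ± 0.552 in islets and 78.5 ± 19.5 in non-islet cells (-3.05, -2.60 and -2.38). Second probes gave smaller differences, -0.80 for Nr5a2 and -2.14 for Gata4 (quantile). Bhlha15 (Mist1), which shapes the secretory apparatus, was less polarized, at 398 ± 26.1 in islets and 1000.3 ± 82.7 in non-islet cells (-1.83, -1.70 and -1.30), as was Xbp1 at 2209.9 ± 114 in islets and 3875 ± 402 in non-islet cells (-0.53, -1.21 and -0.80). The higher genes were Hes1, a Notch target, and Creb3l2. Gata6 was not called in common (-0.69, -0.02 and 0.34). At equal noise 4 of the 7 lower genes were also lower.

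The Reg family, lectins of acinar cells that are induced in injury, had 4 of 5 genes lower and 0 higher (medians -4.24, -4.03 and -3.71). Reg3d had 154, 125 and 129 on the islet arrays and 2562, 2909.7 and 2287 on the non-islet arrays and Reg2 279, 250.5 and 259 on the islet arrays and 2964, 3144 and 3307 on the non-islet arrays. Both were lower in islets without overlap, with log2 differences of -4.43, -4.49 and -4.10 and -3.76, -3.91 and -3.51. Reg3b, an antibacterial lectin, averaged 25.4 ± 1.42 in islets and 602 ± 76.8 in non-islet cells (-4.43, -4.27 and -3.93), and a second Reg3b probe differed by -1.28 (quantile). Reg1 lay at the top of the scale like the enzymes, with log2 differences of -0.01, -2.08 and -1.67. Of genes linked to injury and the acute phase 3 of 6 were lower and 2 higher (medians -0.41, -0.35 and -0.22, 3 through islets alone), including Clu, clusterin (682 ± 19 in islets and 3698 ± 66.1 in non-islet cells, -2.56, -2.82 and -2.41), and Nupr1, a stress-induced chromatin protein (1222 ± 235 in islets and 7127 ± 933 in non-islet cells, -2.37, -2.95 and -2.54).

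Both tissues secrete protein, and genes of folding in the endoplasmic reticulum (ER) differed member by member. In ER translocation and folding 8 of 27 were higher and 3 lower (medians 0.15, 0.12 and 0.52), so the list lay close to the median gene. Pdia3, a glycoprotein disulfide isomerase, had 1221, 1582 and 1371 on the islet arrays and 199.8, 189 and 208 on the non-islet arrays and was higher (2.14, 2.32 and 2.71). Ddost, of the oligosaccharyl transferase, averaged 1962 ± 151 in islets and 631 ± 112 in non-islet cells (1.44, 1.22 and 1.62), and Hsp90b1, the ER form of Hsp90, 2005 ± 191 in islets and 773 ± 52.1 in non-islet cells (1.17, 0.95 and 1.36). P4hb, the main disulfide isomerase, averaged 2947 ± 65.7 in islets and 3729.5 ± 445 in non-islet cells and was not called in common (0.01, -0.74 and -0.33). Together these probes held 1.40 ± 0.0281 percent of the islet signal and 1.01 ± 0.0063 percent of the non-islet signal.

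Regulators of the unfolded protein response were split, 4 of 13 higher and 6 lower (medians -0.53, -0.65 and -0.24, 4 through islets alone). Over the 9 above background on all arrays, 1 was higher and 6 lower. The 6 lower genes included 2 factors of ER-associated degradation, Sel1l and Edem1. Sel1l, which retrotranslocates misfolded proteins, had 394, 402 and 429 on the islet arrays and 2357, 2327 and 2868 on the non-islet arrays (-2.86, -2.98 and -2.58). Edem1, which selects glycoproteins for disposal, averaged 43.8 ± 4.35 in islets and 201 ± 26.2 in non-islet cells (-2.72, -2.23 and -1.88). The 4 higher genes were Ddit3, Atf3, Trib3 and Ppp1r15a, known as targets of the eIF2alpha branch. Atf3 averaged 23.3 ± 1.08 in islets and -5.72 ± 4.11 in non-islet cells, dim in both groups. Asns, asparagine synthetase, a target of the same branch, was lower (759.7 ± 96.4 in islets and 2108 ± 434 in non-islet cells, -1.64, -1.85 and -1.44). At equal noise Sel1l and Edem1 had log2 differences of -1.37 and -0.85, and 2 of the 6 lower genes were also lower.

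Most genes of the amino acid synthesis list went the way of Asns. The list is wider than its name and also holds creatine synthesis and other enzymes that use amino acids. Of 17 genes 12 were lower in islets and 3 higher (medians -1.64, -1.38 and -1.06). Gamt, which makes creatine from guanidinoacetate, had 90.4, 94.7 and 96.8 on the islet arrays and 1810.4, 1719 and 1967 on the non-islet arrays. The groups were far apart (log2 differences -4.49, -4.47 and -4.08), and Gatm, the step before it, was lower too (-2.07, -1.63 and -1.44). Gnmt, glycine N-methyltransferase, averaged 12.5 ± 2.24 in islets and 152 ± 3.79 in non-islet cells (-3.27, -2.90 and -2.62). Bcat2, the mitochondrial branched-chain aminotransferase, averaged 88.3 ± 6.69 in islets and 575 ± 20.2 in non-islet cells (-3.22, -2.90 and -2.52). Cth, the last step of cysteine synthesis, was above background on no islet array and averaged 1.85 ± 0.206 in islets and 79.5 ± 9.79 in non-islet cells, at least 8.33-fold lower in islets. The higher genes were Glul, Got2 and Bcat1. At equal noise 6 of the 12 lower genes were also lower.

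Zinc handling genes went both ways. Of 17 zinc transporters and metallothioneins 4 were higher and 7 lower, and the median changed sign with the scaling (-0.73, -0.32 and 0.01). Slc30a8 and Slc39a6, with Slc39a6 averaging 222 ± 2.85 in islets and 11.4 ± 3.67 in non-islet cells (2.56, 2.92 and 3.19), were on the islet side. Slc39a5 and Slc30a2, which averaged 1.16 ± 0.85 in islets and 50.4 ± 4.90 in non-islet cells, were on the non-islet side, Slc30a2 at least 5.73-fold. Mt1, a metallothionein, had 3562, 2961 and 3158 on the islet arrays and 13459, 14632 and 13748 on the non-islet arrays and was lower in islets (-1.31, -2.52 and -2.11). At equal noise 4 of the 7 lower genes were also lower.

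Duct markers did not move as a group. Of 12 measured 5 were higher and 4 lower, and the median changed sign with the scaling (-0.30, -0.00 and 0.22). Krt7, a keratin of simple epithelia, had 993, 1076 and 1139 on the islet arrays and 13.9, 10.2 and 16.2 on the non-islet arrays. It was higher in islets by 4.80, 4.97 and 5.27 (log2), with no overlap. Muc1, an apical mucin, had 33.2, 41.2 and 32.2 on the islet arrays and 703, 689 and 768 on the non-islet arrays and was lower (-4.41, -4.22 and -3.87), and both other Muc1 probes were lower by -4.46 and -3.93. Sox9, the duct and progenitor factor, averaged 55.9 ± 0.835 in islets and 203 ± 22.9 in non-islet cells (-2.51, -1.98 and -1.62), and Tspan8, a tetraspanin, 101 ± 2.47 in islets and -7.16 ± 1.56 in non-islet cells, at least 3.58-fold higher. Krt19, a standard duct keratin, did not pass the background filter, so the duct share of the non-islet samples cannot be read from it.

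Vessel genes were higher in islets. Of 20 endothelial genes 19 were higher and 0 lower (medians 1.48, 2.01 and 2.22, 10 through islets alone). Of the 10 above background on all 6 arrays, 10 were higher. The summed level of the list was 3853 to 4184 on islet arrays and 301 to 373 on non-islet arrays. Esm1, endocan, had 631, 649.8 and 684 on the islet arrays and -0.172, -0.424 and 1.09 on the non-islet arrays, at least 23.1-fold higher in islets. Plvap, the diaphragm protein of fenestrated capillaries, had 508, 588 and 502 on the islet arrays and 46.8, 48.6 and 45.5 on the non-islet arrays, with log2 differences of 2.19, 2.79 and 3.14. No array of one group reached the other in either gene. Robo4 averaged 255 ± 23.9 in islets and 15.5 ± 2.65 in non-islet cells (2.42, 2.86 and 3.15), and Pecam1, a general endothelial adhesion molecule, 124 ± 12.1 in islets and 19.03 ± 4.37 in non-islet cells (1.20, 1.75 and 2.04). Cldn5 was the 1 gene without a call (6.49 ± 0.622 in islets and 6.26 ± 3.68 in non-islet cells).

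Of the vessel growth factors 6 of 10 were higher and 2 lower (medians 0.53, 0.65 and 0.78, 5 through islets alone). Vegfa, which endocrine cells supply to islet capillaries, had 928, 1026 and 1049.6 on the islet arrays and 132, 125 and 149 on the non-islet arrays, higher in islets by 1.99, 2.37 and 2.76 (log2). Angpt2 averaged 27.7 ± 2.89 in islets and -6.28 ± 0.657 in non-islet cells, at least 1.496-fold higher, and Angpt1 2.10 ± 1.38 in islets and 17.9 ± 0.828 in non-islet cells, lower by -1.39, -1.10 and -0.95. Stellate and fibroblast genes were 11 of 17 higher and 2 lower (medians 0.43, 0.86 and 1.11, 7 through islets alone). Among those named by the rule, Col4a2, a basement membrane collagen, averaged 501 ± 6.53 in islets and 61.0 ± 9.81 in non-islet cells (1.80, 2.41 and 2.77), Acta2, smooth muscle actin of pericytes and vessel walls, 106 ± 3.82 in islets and -2.09 ± 1.05 in non-islet cells, at least 3.75-fold, and Mgp 209.7 ± 39.7 in islets and 13.7 ± 2.13 in non-islet cells (2.26, 2.68 and 2.96). A second Acta2 probe differed by 0.82 (log2, quantile). Over the 10 stellate and fibroblast genes above background on all arrays, 4 were higher and 2 lower, with a quantile median of 0.16.

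Immune genes were at modest levels, and most were measured through the islet arrays. Macrophage and myeloid genes were 11 of 12 higher and 0 lower (medians 0.72, 0.82 and 0.98, 10 through islets alone), led by Laptm5 (158 ± 5.97 in islets and 13.8 ± 5.19 in non-islet cells, 1.91, 2.34 and 2.62). The other Coro1a probes differed by 0.39 and -0.15 where the brightest differed by 1.41. Class II antigen presentation genes were 5 of 6 higher and 0 lower (medians 2.29, 2.70 and 2.98, 4 through islets alone). H2-Ab1 had 251, 246 and 257 on the islet arrays and 9.31, 8.07 and 9.21 on the non-islet arrays, with no overlap (2.94, 3.23 and 3.49), and Cd74, the invariant chain, averaged 302 ± 43.6 in islets and 17.8 ± 8.87 in non-islet cells (2.54, 3.00 and 3.31). Interferon-response genes were 8 of 13 higher and 0 lower (medians 0.56, 0.69 and 0.87, 8 through islets alone), with Rsad2 at 116 ± 11.6 in islets and 9.83 ± 1.57 in non-islet cells (1.81, 2.15 and 2.41). T and B lymphocyte genes were 1 of 4 higher and 1 lower (3 through islets alone), at summed levels of 18.2 to 22.9 on islet arrays and 18.2 to 23.1 on non-islet arrays. Summed macrophage levels were 446 to 473 and 29.0 to 67.9. What part cells of vessels and blood had in the islet differences was not tested.

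The remaining cell type lists were short. Erythrocyte genes were 2 of 3 higher and 0 lower, with Hba-a1, alpha globin, at 917 ± 95.8 in islets and 240.2 ± 39.8 in non-islet cells (1.18, 1.48 and 1.88) and above background on all 6 arrays. Adipocyte genes were 2 of 3 higher and 1 lower, with Lpl, lipoprotein lipase, at 742 ± 43.7 in islets and 356 ± 26.4 in non-islet cells, and a second Pparg probe was not called (0.20). Mesothelial genes were 0 of 2 higher and 1 lower, at summed levels of 8.70 to 14.7 and 12.2 to 26.4.

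**Figure D4:**
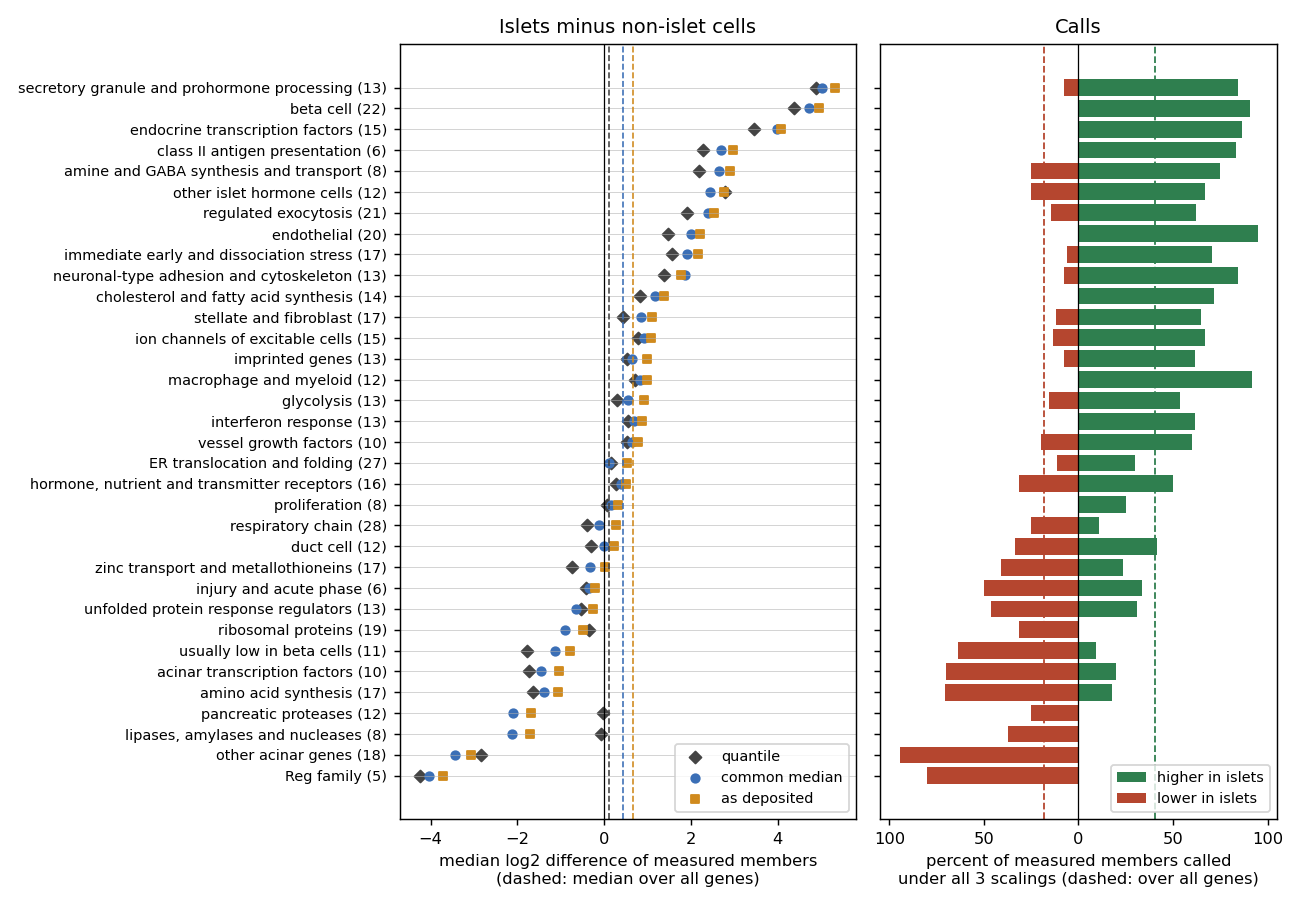
For lists with at least 5 measured genes (number in brackets), the left panel gives the median log2 difference of measured members under 3 scalings, with the median over all genes dashed, and the right panel the percent of members called higher or lower in islets under all 3 scalings, with the percent over all genes dashed. Granule, beta cell and endocrine factor lists lie at the top, Reg and other acinar genes at the bottom, and the 2 enzyme lists have the widest gap between the quantile median and the other scalings.

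Metabolic genes set the tissues apart at single steps. In glycolysis 7 of 13 genes were higher and 2 lower (medians 0.30, 0.56 and 0.92). Ldha, lactate dehydrogenase A, had 11.2, 11.3 and 12.1 on the islet arrays and 324, 272 and 361 on the non-islet arrays. It was lower in islets by -4.19, -3.95 and -3.65 (log2) with no overlap, and Hk2, a low-Km hexokinase, was lower as well (8.27 ± 2.09 in islets and 33.3 ± 0.164 in non-islet cells, -1.73, -1.29 and -1.07). Aldoa (499 ± 49.0 in islets and 67.8 ± 1.65 in non-islet cells, 1.65, 2.26 and 2.63) and Eno2, the neuronal enolase (234 ± 6.29 in islets and 3.42 ± 4.12 in non-islet cells, at least 7.77-fold), were higher. Ldha belongs to the genes usually kept low in beta cells, of which 7 of 11 were lower and 1 higher (medians -1.77, -1.14 and -0.79). Smad3, a TGF-beta signal carrier, averaged 37.5 ± 1.48 in islets and 138 ± 8.54 in non-islet cells (-2.40, -1.88 and -1.54), Ndrg2 26.7 ± 0.713 in islets and 91.3 ± 5.17 in non-islet cells (-2.20, -1.67 and -1.35) and Cxcl12 83.5 ± 4.25 in islets and 226 ± 34.7 in non-islet cells (-2.19, -1.65 and -1.28). A second Cxcl12 probe differed by -0.85 (log2, quantile). At equal noise 3 of the 7 were also lower, Ldha among them (-2.82).

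Cholesterol and fatty acid synthesis was 10 of 14 higher and 0 lower (medians 0.84, 1.18 and 1.38). Acly, which makes cytosolic acetyl-CoA from citrate, had 4037, 3513 and 3893 on the islet arrays and 292, 340.2 and 364 on the non-islet arrays, higher in islets by 3.37, 3.07 and 3.47 (log2) with no overlap. Elovl6, a fatty acid elongase, averaged 103 ± 2.21 in islets and 3.02 ± 0.484 in non-islet cells, at least 3.66-fold, and Sqle, squalene epoxidase, 721 ± 62.3 in islets and 162 ± 15.7 in non-islet cells (1.29, 1.67 and 2.06). Imprinted genes were 8 of 13 higher and 1 lower (medians 0.53, 0.64 and 0.98, 8 through islets alone). Ndn, necdin, had 636, 697 and 738 on the islet arrays and 6.59, 0.949 and 2.02 on the non-islet arrays, at least 24.5-fold higher, Peg3 averaged 303 ± 13.2 in islets and 1.03 ± 1.46 in non-islet cells, at least 10.1-fold, and Rasgrf1 139 ± 8.83 in islets and 6.06 ± 2.92 in non-islet cells (2.38, 2.66 and 2.89).

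Housekeeping lists differed in how far they moved with the scaling. The respiratory chain had 3 of 28 genes higher and 7 lower, and its median changed sign (-0.40, -0.13 and 0.27). Sdhb, of complex II, averaged 174 ± 3.69 in islets and 321 ± 7.11 in non-islet cells (-1.68, -1.22 and -0.83) and Ndufb9, of complex I, 158 ± 9.51 in islets and 253 ± 12.2 in non-islet cells (-1.55, -1.02 and -0.63), against Atp5b, of ATP synthase, at 686 ± 58.7 in islets and 205 ± 23.0 in non-islet cells (0.90, 1.28 and 1.67). Cytosolic ribosomal proteins had 0 of 19 higher and 6 lower (medians -0.36, -0.89 and -0.48), with Rpl5 at 2118 ± 22.9 in islets and 4579.6 ± 171 in non-islet cells (-0.83, -1.52 and -1.11). The ribosomal median was below 0 and below the median gene under each of the 3 scalings, and at equal noise it was 0.64 against 1.42 for the median gene. All 19 members were above background on all 6 arrays. Genes of that kind had medians of -0.24, 0.25 and 0.57, and 1.53 at equal noise, so after quantile normalization the ribosomal median lay close to theirs. Ribosomal probes held 2.30 ± 0.151 percent of the deposited signal on islet arrays and 4.23 ± 0.239 percent on non-islet arrays. Leaving out any 1 islet array ended the quantile call of Rpl4 (9.25 ± 1.45 in islets and 16.3 ± 9.64 in non-islet cells). Proliferation genes were 2 of 8 higher and 0 lower (medians 0.07, 0.15 and 0.31).

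Of 17 immediate early and dissociation stress genes 12 were higher in islets and 1 lower (medians 1.57, 1.92 and 2.17, 6 through islets alone). Over the 11 above background on all arrays, 6 were higher and 1 lower. Fos had 2306, 2541 and 2653 on the islet arrays and 171, 172 and 230.5 on the non-islet arrays, higher by 3.27, 3.23 and 3.62 (log2). Dusp1, a MAP kinase phosphatase, had 1216, 1299 and 1391 on the islet arrays and 54.9, 44.5 and 57.5 on the non-islet arrays, higher by 3.57, 3.94 and 4.30. Neither gene overlapped between groups. Fosb averaged 297 ± 53.5 in islets and -3.04 ± 3.37 in non-islet cells, at least 9.83-fold, and Socs3 337 ± 19.5 in islets and 15.9 ± 4.24 in non-islet cells (2.82, 3.23 and 3.52). These genes respond within minutes to handling of tissue, the 2 groups were prepared differently (hand-picked islets against the tissue left over), and preparation and tissue cannot be told apart here.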

How the data were processed

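Mouse pancreas RNA extracted with Trizol was amplified with an Ambion TotalPrep kit, labelled with biotin and hybridized to Illumina bead arrays, per the labels' protocols. The deposited values are intensities on a linear scale that the authors made with BeadStudio, per the submitters' processing notes, which give no version or settings. From the values, background had been subtracted, since 25.8 percent of islet and 33.8 percent of non-islet values lay below 0, and the arrays had been brought to equal means. A second deposited table has 36 columns named by slide position, which no label ties to a sample, so its detection p-values were not used here.

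From these intensities the 6 arrays were quantile-normalized, an offset of 14.8, chosen so that the lowest normalized value became 1, was added and log2 taken. Signal beyond 1.64 times an array's noise SD, itself estimated by mirroring its values below 0, was taken as above background, and 13036 of 24613 probes that passed on all 3 arrays of either group were kept. Of all probes 20984 carried 1 gene symbol, 1 several and 3628 none, and 20968 were matched by gene number to RefSeq. The brightest kept probe stood for each of 9352 genes. Groups were compared with limma 3.58.1 in R 4.3.3 (lmFit, eBayes, 4 residual degrees of freedom, Benjamini-Hochberg adjustment), and the same test was run on arrays scaled to a common median and on the deposited values. A gene was called higher or lower if the adjusted p was under 0.05 in the same direction under all 3. The procedure was tested on simulated data. A gene above background on all arrays of 1 group and none of the other is given as a bound: the bright group's mean against the dim group's mean, with each dim array taken at no less than its lowest signal above background. The number of arrays limits the precision.

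Members and the 39 gene lists (among them cell type markers) were chosen with earlier results of these data known. Genes were named by rule: a panel of 40, the 10 largest rises and 10 largest falls called under all 3 scalings without overlap, and from each list the 4 members, or fewer, that were called and differed most. Other list members, and the promoter motifs, were chosen after values were seen. Promoters are RefSeq sequences of GRCm38.p6. Alternatives were the scalings, offsets, filters, variance models, size limits, the 9-array fit, a replicate block, probe choice and leaving out each array.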

Additional observations from a re-analysis of the deposited data

How the results depend on the processing

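After quantile normalization 5222 probes were higher and 4403 lower in islets, and 5204 and 2344 under all 3 scalings. The deposited values gave 8325 and 2384, scaling to equal noise 10857 and 660, and restriction to probes above background on all arrays 2084 higher and 3910 lower (2071 and 1972 under all 3 scalings), a filter that by construction removes islet genes silent in the other tissue. Asking for 2-fold after quantile normalization left 1962 higher and 1749 lower, and 4-fold 503 and 310. The common median gave 7031 and 3121, and no filter 5457 and 5821. A common median over probes above background on all arrays, chosen after seeing the data, gave 4682 and 4707. Leaving out 1 array gave 4707 to 5345 higher and 4005 to 4558 lower, and 4679 to 5331 and 2139 to 2490 under all 3 scalings. With the replicate number as a replicate block the counts were 5254 and 4392, and 5240 and 2348 under all 3 scalings. Deviations of same-numbered arrays correlated at 0.0949, -0.0682 and 0.219, so the numbers were not taken to pair samples. On the quantile scale the 50 brightest probes held 29.9 percent in both groups. Enzymes held 12.2 percent in islets and 15.3 percent in non-islet cells on that scale, and hormones 4.09 and 0.00882 percent. Ribosomal proteins held 3.23 and 3.40 percent (2.30 and 4.23 percent as deposited), and ER folding genes 1.37 and 1.08 percent. Of 163 named genes 6 enzymes, uncalled after quantile normalization, turned negative elsewhere. In the order common median, deposited, equal noise and median of probes above background on all arrays, the log2 differences were -2.11, -1.70, -0.48 and -2.79 for Cel, -2.01, -1.60, -0.38 and -2.69 for Cela1, -2.02, -1.61, -0.39 and -2.70 for Clps, -2.05, -1.64, -0.42 and -2.73 for Cpb1, and -2.01, -1.60, -0.38 and -2.69 for Ctrb1. Cpa1 had -1.85, -1.44 and -2.53 without the equal-noise scaling. Lpl turned to -0.024 under the last, and Rpl38 to 0.16 as deposited and 1.25 at equal noise. Equal noise also turned Cyc1 (0.88), Mcm6 (0.31), Ndufb9 (0.51), Pdgfa (0.76), Rpl32 (0.025), Rpl4 (0.22), Rpl5 (0.12), Scd1 (0.80), Sdhb (0.32), Sstr2 (0.21), Tyms (0.81) and Uqcrc1 (0.77) and the medians of the acinar factor (0.14), unfolded protein response (0.65), ribosomal (0.64), usually-low (0.25), injury (0.18) and mesothelial (0.26) lists, and by its construction it raises islet signal over the deposited scale. With probes above background on all arrays the medians turned negative for other hormone cells (-1.20), ion channels (-1.16), receptors (-1.11), neuronal adhesion (-0.63), endocrine transcription factors (-0.44), vessel growth factors (-0.15), lymphocytes (-1.46) and proliferation (-0.56), fewer genes being left in each list. The common median over those probes turned ER folding (-0.30), lymphocytes (-0.068), adipocytes (-0.024) and proliferation (-0.070). These causes were not tested beyond the position on the array scale given for the enzymes. Without 1 array, Rpl4 (adjusted p 0.0659, 0.0792 and 0.0609 without islet arrays 1, 2 and 3) and Sox10 (0.104, 0.0647 and 0.0694 without islet 1, islet 3 and non-islet 1) lost their calls, the only ones of the 163. Of the 1706 lower genes 1188 had a non-islet mean under 50, of which 281 were lower at equal noise, as were 208 of the 518 brighter ones.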
